A study of Mus musculus with 10 samples.

Results

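The genes described here are those of glycolysis, the breakdown of glucose to pyruvate, and of the transcriptional response to low oxygen. The list holds 32 genes. Probes were found for 31 of them by the gene name printed on the array or by the current symbol of the probe's accession, 54 probes in all. Gapdh had none by this rule and was left out. All 31 genes were among the 20088 tested, since each had a probe well above the scanner's local background on all 10 arrays. Levels are log2 values of 1 probe a gene (the brightest), set to 0 at the 75th percentile of each array, so levels of different genes are not compared with each other. The array's name Pkm2 stands for the whole Pkm gene, and the Eno1 probe also lists an accession of the near-identical gene Eno1b.

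The cells were J1, an established line of mouse embryonic stem cells. They received siRNA against Ino80, Ino80b, Ino80c or Ino80e, or a non-targeting siRNA (NT), in M15 medium, and RNA was taken 96 hours later (day 4). Each of the 5 groups has 2 arrays, which the design text calls biological replicates. All groups share the cell line, the transfection and the time, and the labels name no low-oxygen or glucose treatment. Ino80 is the ATPase of the INO80 chromatin remodelling complex, and the other 3 targets are further subunits of it. siRNA lowers an mRNA without removing it, and how many siRNAs were used per target was not stated.

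Glycolysis yields ATP without oxygen, and its fate is set at pyruvate, which lactate dehydrogenase reduces to lactate and whose conversion to acetyl-CoA in mitochondria is slowed when pyruvate dehydrogenase kinases inhibit pyruvate dehydrogenase. Under low oxygen, prolyl hydroxylases no longer mark the subunit Hif1a for breakdown, and the dimer of Hif1a and Arnt then binds DNA at a short core sequence near many glycolytic genes. Pluripotent stem cells are known for high glycolytic activity even with oxygen present. Hif1a is regulated mostly at the protein, which arrays do not measure.

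The core bound by the HIF dimer is ACGTG or GCGTG, and the promoters of Bnip3, Aldoc and Pgk1 are printed as examples. These are 3 of 15 genes whose level was higher on replicate 2 in every group, as described further on. The 3 were picked and do not stand for the 15, among which Hk1, Gpi1, Tpi1 and Vegfa had no match to the core. Each printed promoter is the 250 bases before the RefSeq start, 5′ to 3′, build GRCm38.p6, with matches to the core on either strand in capitals. They lie at chr7:138909507-138909756 (minus strand), chr11:78322823-78323072 (plus strand) and chrX:106186850-106187099 (plus strand).
Bnip3: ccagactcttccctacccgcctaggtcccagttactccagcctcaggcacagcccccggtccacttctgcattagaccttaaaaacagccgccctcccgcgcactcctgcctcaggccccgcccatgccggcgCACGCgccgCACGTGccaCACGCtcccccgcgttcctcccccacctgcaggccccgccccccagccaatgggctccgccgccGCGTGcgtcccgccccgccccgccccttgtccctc
Aldoc: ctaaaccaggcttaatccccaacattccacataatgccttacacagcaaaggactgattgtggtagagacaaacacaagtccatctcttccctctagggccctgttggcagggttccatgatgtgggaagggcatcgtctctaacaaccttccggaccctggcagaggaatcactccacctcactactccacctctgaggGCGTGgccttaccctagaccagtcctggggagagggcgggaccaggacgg
Pgk1: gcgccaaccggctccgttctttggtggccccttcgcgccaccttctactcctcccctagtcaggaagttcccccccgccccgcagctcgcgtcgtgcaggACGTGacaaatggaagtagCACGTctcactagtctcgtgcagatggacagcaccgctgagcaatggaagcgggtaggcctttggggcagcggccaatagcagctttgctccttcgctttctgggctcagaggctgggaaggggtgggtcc
The Bnip3 stretch holds 5 matches, counting 2 for a CACGTG, a palindrome that matches the core on both strands and is also the E-box read by Myc. The Aldoc stretch holds 1 match and the Pgk1 stretch 2. RefSeq windows of 300 bases (250 before and 50 after the start) were at hand for 31 of the 32 listed genes, all but Ndrg1. Where a gene had more than 1 window, only the first listed was used. ACGTG or its reverse complement was in 18 of these 31 windows (58.1%), against 24.0% of the 12115 tested genes with a window. GCGTG was in 16 (51.6%), against 46.8%. Either core was in 24 (77.4%), against 58.1%. The listed genes' windows also had more G and C, a median of 64.7% against 59.7%, and many of the listed genes are known HIF targets, so the shares describe the list and say nothing of binding in these cells. Vegfa, Eno2, Pkm2, Tpi1, Hk1, Gpi1 and Aldoa had no match in their window, and other starts and more distant bases were not searched.

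The targeted mRNA was at 43.6% of NT after Ino80 siRNA, 24.9% after Ino80b siRNA, 19.7% after Ino80c siRNA and 43.4% after Ino80e siRNA, the last with an adjusted p of 0.0800 by limma. Ino80b mRNA was also low where it was not the target. Its levels were -2.41 and -2.37 after Ino80c siRNA and -2.44 and -2.90 after Ino80e siRNA, against -1.39 and -1.16 after NT siRNA, differences of -1.11 ± 0.35 and -1.39 ± 0.35 that did not pass (adjusted p = 0.0898 and 0.0872). Both NT arrays were on slide 1, the Ino80 and Ino80b arrays on slide 2 and the Ino80c and Ino80e arrays on slide 3. A difference between a knockdown and NT therefore cannot be told apart from one between slides, whereas Ino80 against Ino80b and Ino80c against Ino80e are comparisons within a slide. The median of all 20088 genes also lay above NT, by 0.17, 0.13, 0.25 and 0.19 (log2) after Ino80, Ino80b, Ino80c and Ino80e siRNA. Stem cell markers were well above background on every array (9 of 9 tested). Of these, 4, 3, 2 and 0 were called lower than NT in the same order of knockdowns, with a summed level of 8.69 to 8.98, 8.97 to 9.20, 9.18 to 9.21 and 9.36 to 9.52, against 9.24 to 9.32 on the NT arrays. Primitive endoderm markers were called lower in 8, 7, 2 and 0 of 8, and fibroblast feeder markers higher in 4, 2, 3 and 0 of 9. Summed levels of the primitive endoderm list were 0.76 to 0.89, 1.12 to 1.33, 1.83 to 2.10 and 2.57 to 2.70, against 2.61 to 2.65 on the NT arrays. Of these 2 lists 7 or 8 of 8 and 7 to 9 of 9 were well above background on an array. Summed levels of the fibroblast list were 5.21 to 5.27, 4.63 to 4.93, 4.71 to 4.95 and 4.44 to 4.61, against 4.91 to 5.0 on the NT arrays. Of the trophectoderm list 3, 0, 1 and 0 of 6 were called higher, and of the blood list 1, 0, 1 and 0 of 4 lower, with 6 of 6 and 2 to 4 of 4 well above background on an array. Their summed levels were 5.58 to 5.99, 4.97 to 5.21, 4.68 on both arrays and 4.76 to 5.16, against 4.30 to 4.60 on the NT arrays, for the trophectoderm list, and -1.71 to -1.15, -0.73 to -0.47, -0.69 to -0.45 and -0.84 to -0.53, against 0.07 to 0.21 on the NT arrays, for the blood list. The part of these shifts in the results below was not tested.

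The question was whether depletion of an INO80 subunit changed the RNA of glycolytic and hypoxia response genes. None of the 31 genes passed an adjusted p of 0.05 (limma, Benjamini-Hochberg over all genes) in any of the 4 comparisons with NT. Over all genes the same rule called 12.6% after Ino80 siRNA, 6.76% after Ino80b siRNA, 6.69% after Ino80c siRNA and 0% after Ino80e siRNA. At an unadjusted p of 0.05, 5 of the 31 passed after Ino80 siRNA, against 31.5% of all genes. After Ino80b siRNA 9 passed, against 29.6%. After Ino80c siRNA 5 passed, against 30.7%, and after Ino80e siRNA 7, against 28.7%. By direction, in the order Ino80, Ino80b, Ino80c and Ino80e, 9.68%, 22.6%, 16.1% and 9.68% of the 31 passed and were lower. Over all genes these shares were 10.8%, 10.1%, 7.41% and 6.87%. Passed and higher were 6.45%, 6.45%, 0% and 12.9% of the 31, against 20.7%, 19.5%, 23.2% and 21.9% of all genes. The lowest adjusted p among the 31 was 0.0609, 0.0511, 0.0565 and 0.0922 in the same order, so several genes lay just short of the threshold. Their differences are given below as values that did not pass, and other processing choices took some of them past it. Arrays of a knockdown that did not overlap NT were common over all genes. Both lay above both NT arrays for 19.4%, 29.0%, 19.4% and 35.5% of the 31, against 35.7%, 37.5%, 44.6% and 41.1% of all genes. Both lay below for 22.6%, 29.0%, 22.6% and 9.68% of the 31, against 18.6%, 21.0%, 15.9% and 16.8%. The median difference of the 31 genes was 0.11, -0.01, 0.08 and 0.27, below the median of all genes for Ino80, Ino80b and Ino80c and above it for Ino80e. In these bulk RNA samples fewer cells of a type and less RNA per cell cannot be told apart.

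**Figure D1:**
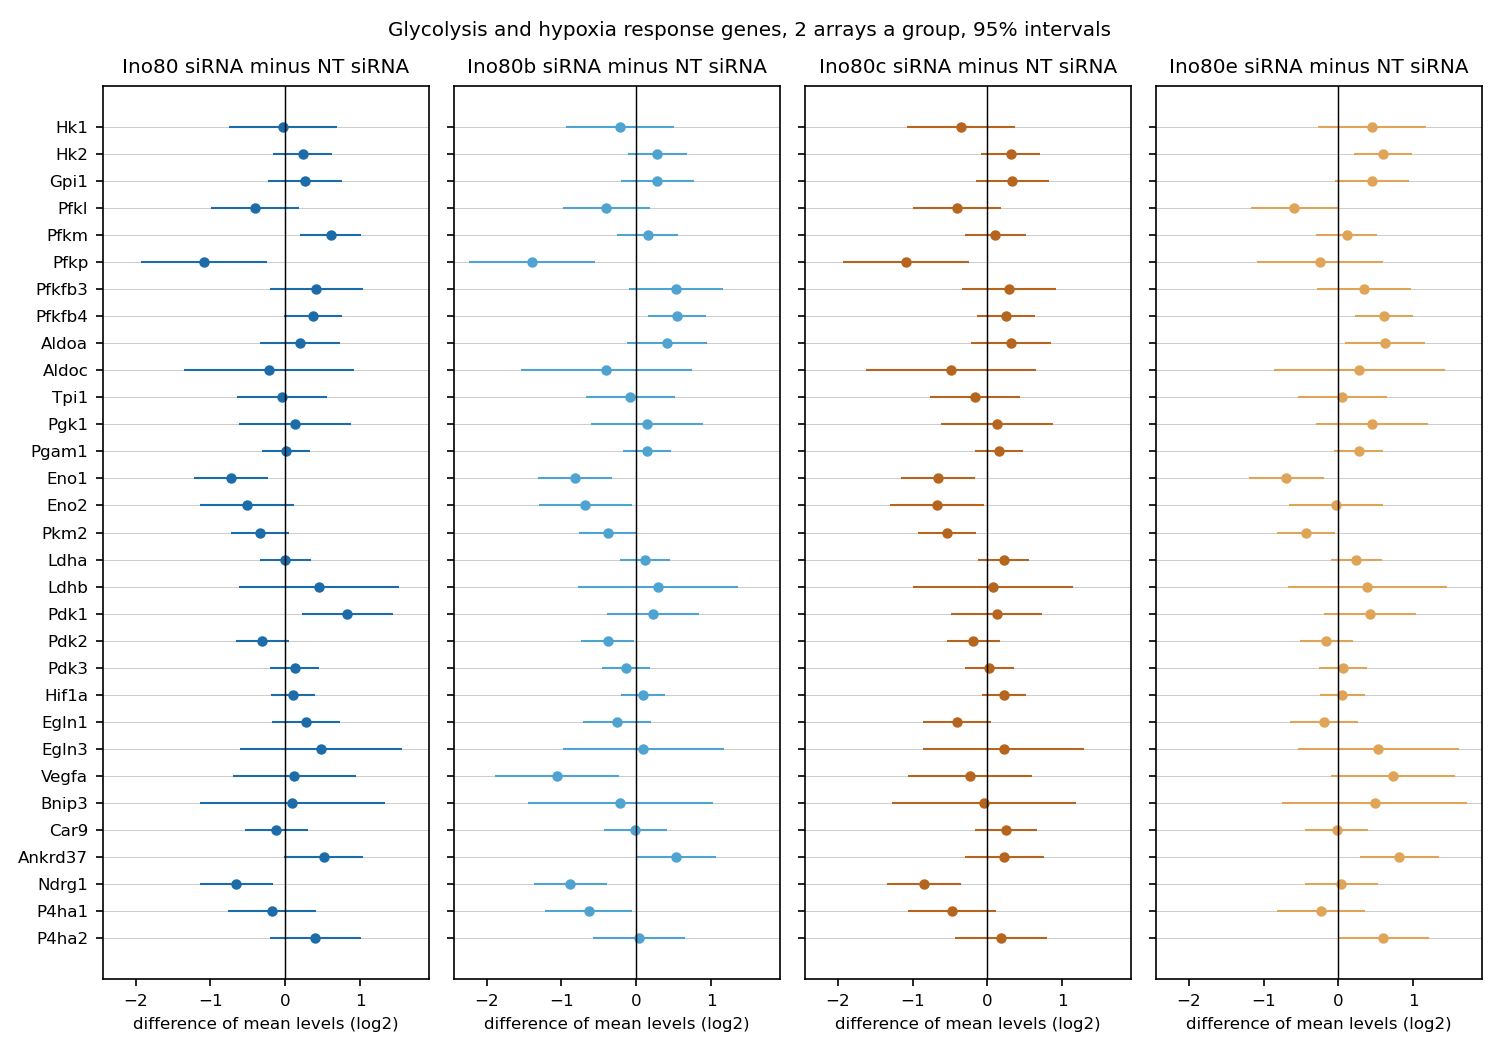
Difference of mean log2 levels, knockdown minus NT siRNA, for the 31 genes in 4 panels, one per knockdown (points, with 95% limma intervals as lines, 2 arrays a group). Pfkp, Eno1 and Ndrg1 lie left of 0 after Ino80, Ino80b and Ino80c siRNA, and after Ino80e siRNA only Eno1 of these 3 has an interval that leaves out 0.

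Late in the pathway, 2 genes were lower on every knockdown array than on either NT array. Eno1, the enolase that forms phosphoenolpyruvate, had levels of 4.48 and 4.32 after Ino80 siRNA, 4.30 and 4.31 after Ino80b siRNA, 4.39 and 4.55 after Ino80c siRNA and 4.35 and 4.5 after Ino80e siRNA, against 4.80 and 5.44 after NT siRNA. The 2 NT arrays differed by more than the 8 knockdown arrays did among each other. The log2 differences from NT were -0.73 ± 0.21, -0.82 ± 0.21, -0.65 ± 0.21 and -0.70 ± 0.21 (SE) for Ino80, Ino80b, Ino80c and Ino80e. The last step, pyruvate kinase (Pkm2), had levels of 6.82 and 6.74 after Ino80 siRNA, 6.75 and 6.72 after Ino80b siRNA, 6.57 and 6.59 after Ino80c siRNA and 6.68 and 6.69 after Ino80e siRNA, against 6.88 and 7.35 after NT siRNA. The higher NT array stood apart from the other. The Pkm2 differences were -0.34 ± 0.16, -0.38 ± 0.16, -0.54 ± 0.16 and -0.43 ± 0.16, with the lowest adjusted p at 0.0851 after Ino80c siRNA. Eno1's adjusted p ran from 0.0613 after Ino80b siRNA to 0.103 after Ino80e siRNA. The size of both genes' differences depended on which NT array was kept. Without NT replicate 1 the Eno1 differences were -1.05, -1.14, -0.97 and -1.02 and passed in all 4 comparisons (limma adjusted p 0.0163 to 0.0454), and without NT replicate 2 they were -0.41, -0.50, -0.34 and -0.38. For Pkm2 they were -0.57, -0.61, -0.77 and -0.67 without NT replicate 1, the first 3 past the threshold, and -0.10, -0.14, -0.30 and -0.20 without NT replicate 2. Under quantile normalization the same Pkm2 probe no longer lay below NT on all 8 arrays. A second Pkm2 probe gave larger differences, -0.63, -0.66, -0.72 and -0.70, each ± 0.19. It read 6.12 and 5.96 after Ino80 siRNA, 6.02 and 6.01 after Ino80b siRNA and 5.81 and 6.10 after Ino80c siRNA. After Ino80e siRNA it read 5.99 and 5.95, against 6.45 and 6.90 after NT siRNA. Being below both NT arrays on all 8 knockdown arrays was the case for 2 of the 31 genes, 6.45%, against 7.56% of all genes. Above both NT arrays were 0 of the 31, against 19.2% of all genes.

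The neuronal enolase Eno2 had levels of -3.12 and -3.21 after Ino80 siRNA, -3.49 and -3.18 after Ino80b siRNA, -3.58 and -3.09 after Ino80c siRNA and -2.87 and -2.50 after Ino80e siRNA, against -2.97 and -2.34 after NT siRNA. Its arrays lay below NT after Ino80, Ino80b and Ino80c siRNA and overlapped NT after Ino80e siRNA, with differences of -0.51 ± 0.27, -0.68 ± 0.27, -0.68 ± 0.27 and -0.03 ± 0.27. Pgk1, the first ATP-yielding kinase, had 6.63 and 7.10 after Ino80 siRNA, 6.59 and 7.16 after Ino80b siRNA, 6.66 and 7.05 after Ino80c siRNA and 6.96 and 7.40 after Ino80e siRNA, against 6.41 and 7.04 after NT siRNA. Its replicates lay 0.39 to 0.63 apart, and each knockdown overlapped NT. The mutase Pgam1 differed little, by 0.01 ± 0.14, 0.14 ± 0.14, 0.16 ± 0.14 and 0.27 ± 0.14.

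**Figure D2:**
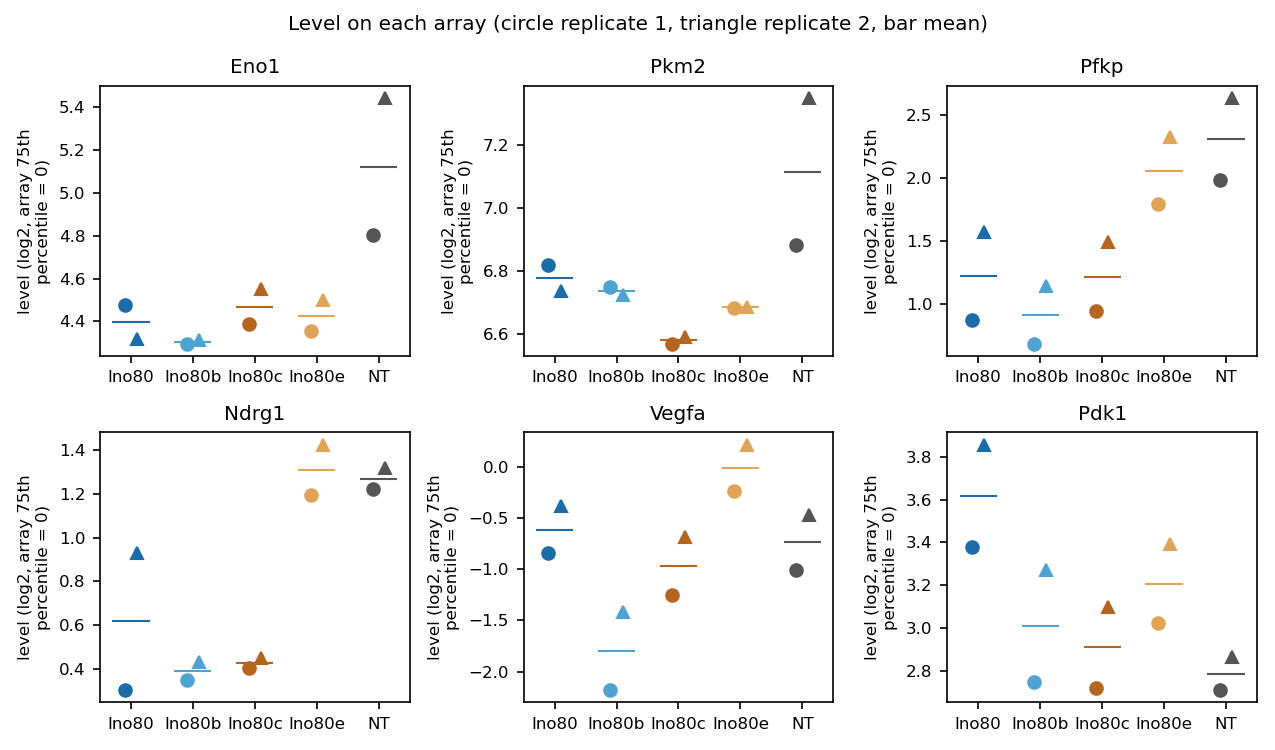
Level on each array (log2, array 75th percentile at 0) for 6 genes, knockdowns left of NT. Circles are replicate 1, triangles replicate 2 and bars group means; the vertical axes differ between panels and do not start at a fixed value. Eno1 and Pkm2 are below both NT arrays on all 8 knockdown arrays, and Ndrg1 and Pfkp are below NT in 3 knockdowns but not after Ino80e siRNA.

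At the phosphofructokinase step, the committed step of glycolysis, the 3 isozymes differed in direction. Pfkp, the platelet-type isozyme, had the largest negative difference of the list after Ino80, Ino80b and Ino80c siRNA. It had 0.87 and 1.57 after Ino80 siRNA, 0.68 and 1.14 after Ino80b siRNA, 0.94 and 1.49 after Ino80c siRNA and 1.79 and 2.32 after Ino80e siRNA, against 1.98 and 2.63 after NT siRNA. Ino80, Ino80b and Ino80c arrays all lay below NT, and Ino80e arrays overlapped NT. The differences were -1.09 ± 0.36, -1.40 ± 0.36, -1.09 ± 0.36 and -0.25 ± 0.36, which is 2.12-fold, 2.63-fold and 2.13-fold lower in the first 3. The adjusted p values were 0.0879, 0.0609, 0.0982 and 0.674. The 3 Pfkp probes did not give 1 value. The Ino80 difference ran from -1.09 to 0.04 over them, the Ino80b one from -1.40 to -0.49 and the Ino80c one from -1.09 to -0.41. The brightest probe, on which the values above rest, spans an intron (build mm7, chr13:6475782-6477936, minus strand).
Pfkp probe: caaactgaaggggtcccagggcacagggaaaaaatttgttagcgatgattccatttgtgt
Its 60 bases are printed because the direction of Pfkp after Ino80 siRNA differed between it and a second probe, while the third probe gave a negative value as the first did.

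The muscle isozyme Pfkm had a positive difference after Ino80 siRNA. Its levels were 2.96 and 3.15 after Ino80 siRNA, 2.44 and 2.77 after Ino80b siRNA, 2.51 and 2.59 after Ino80c siRNA and 2.45 and 2.66 after Ino80e siRNA, against 2.31 and 2.58 after NT siRNA. Both Ino80 arrays lay above NT, and the other 3 knockdowns overlapped it, with differences of 0.61 ± 0.17, 0.16 ± 0.17, 0.10 ± 0.17 and 0.11 ± 0.17. The Ino80 value was the lowest adjusted p of the list in that comparison (0.0609). The liver isozyme Pfkl had 3.84 and 3.97 after Ino80 siRNA, 3.80 and 4.01 after Ino80b siRNA, 3.78 and 4.03 after Ino80c siRNA and 3.62 and 3.82 after Ino80e siRNA, against 3.93 and 4.69 after NT siRNA. Its 2 NT arrays lay far apart, and only the Ino80e arrays lay below both, at -0.59 ± 0.25 (adjusted p = 0.171). Without NT replicate 1 that difference was -0.97, and without NT replicate 2 it was -0.21. Of the bifunctional enzymes that set the phosphofructokinase activator fructose 2,6-bisphosphate, Pfkfb4 had -0.96 and -0.74 after Ino80 siRNA, -0.68 and -0.69 after Ino80b siRNA, -0.89 and -1.07 after Ino80c siRNA and -0.63 and -0.61 after Ino80e siRNA, against -1.04 and -1.41 after NT siRNA. It lay above NT after Ino80, Ino80b and Ino80e siRNA and overlapped NT after Ino80c siRNA, with differences of 0.38 ± 0.16, 0.54 ± 0.16, 0.25 ± 0.16 and 0.61 ± 0.16. Pfkfb3 had 1.16 and 0.70 after Ino80 siRNA, 1.17 and 0.91 after Ino80b siRNA, 1.02 and 0.59 after Ino80c siRNA and 1.07 and 0.63 after Ino80e siRNA, against 0.74 and 0.28 after NT siRNA, with differences of 0.42 ± 0.27, 0.53 ± 0.27, 0.29 ± 0.27 and 0.34 ± 0.27 and 3 probes of unlike sign in 3 of the 4 comparisons.

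At the entry of glucose, Hk2, the hexokinase known as a HIF target, had 4.39 and 4.63 after Ino80 siRNA, 4.55 and 4.57 after Ino80b siRNA, 4.63 and 4.55 after Ino80c siRNA and 4.88 and 4.87 after Ino80e siRNA, against 4.49 and 4.07 after NT siRNA. The Ino80b, Ino80c and Ino80e arrays lay above both NT arrays. The differences were 0.23 ± 0.17, 0.28 ± 0.17, 0.31 ± 0.17 and 0.60 ± 0.17, the last with an adjusted p of 0.0944. Hk1, the constitutive hexokinase, had 1.64 and 2.47 after Ino80 siRNA, 1.71 and 2.02 after Ino80b siRNA, 1.64 and 1.81 after Ino80c siRNA and 2.30 and 2.76 after Ino80e siRNA, against 1.87 and 2.29 after NT siRNA. The Ino80c arrays lay below both NT arrays, the Ino80e arrays above both, and the Ino80 and Ino80b arrays overlapped NT. Its 5 kept probes differed in sign in 3 of the 4 comparisons. For Ino80e against NT the reported probe gave 0.45 and a dim probe 0.40, whereas the others gave -0.46, -0.84 and -0.49. Those others were negative in each comparison with NT, so the direction of Hk1 after Ino80e siRNA depended on the probe. Gpi1, the isomerase that follows, had 6.50 and 7.0 after Ino80 siRNA, 6.61 and 6.93 after Ino80b siRNA, 6.79 and 6.84 after Ino80c siRNA and 6.78 and 7.09 after Ino80e siRNA, against 6.42 and 6.56 after NT siRNA. The Ino80b, Ino80c and Ino80e arrays lay above NT, but its second probe gave negative differences after Ino80, Ino80c and Ino80e siRNA. That probe was much dimmer, with levels of -5.87 to -3.53. It was well above background on 9 of the 10 arrays, and its differences had an SE of 0.60.

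The aldolase Aldoa had 8.06 and 8.54 after Ino80 siRNA, 8.28 and 8.74 after Ino80b siRNA, 8.43 and 8.40 after Ino80c siRNA and 8.60 and 8.84 after Ino80e siRNA, against 7.96 and 8.25 after NT siRNA. Its differences were 0.19 ± 0.23, 0.41 ± 0.23, 0.31 ± 0.23 and 0.62 ± 0.23, with both probes positive in each comparison, and the Ino80b, Ino80c and Ino80e arrays above both NT arrays. Aldoc, the brain aldolase, had 0.78 and 1.69 after Ino80 siRNA, 0.73 and 1.38 after Ino80b siRNA, 0.77 and 1.17 after Ino80c siRNA and 1.33 and 2.14 after Ino80e siRNA, against 0.91 and 2.00 after NT siRNA, and its replicates lay 0.40 to 1.10 apart. Tpi1, the triose phosphate isomerase, differed from NT by -0.05 ± 0.26, -0.08 ± 0.26, -0.17 ± 0.26 and 0.05 ± 0.26, each smaller than the gap of 0.62 between its 2 NT arrays.

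Around pyruvate, Pdk1, the kinase that blocks pyruvate dehydrogenase and a known HIF target, had the largest positive difference of the list after Ino80 siRNA. Its levels were 3.38 and 3.86 after Ino80 siRNA, 2.75 and 3.27 after Ino80b siRNA, 2.72 and 3.1 after Ino80c siRNA and 3.02 and 3.39 after Ino80e siRNA, against 2.71 and 2.86 after NT siRNA. The Ino80 arrays and the Ino80e arrays lay above both NT arrays, and the Ino80b and Ino80c arrays overlapped NT. The Ino80 difference was 0.83 ± 0.26 (1.78-fold, 95% interval 0.22 to 1.44, adjusted p = 0.0769). The others were 0.22 ± 0.26, 0.12 ± 0.26 and 0.42 ± 0.26 for Ino80b, Ino80c and Ino80e. The order of the knockdowns differed on a second Pdk1 probe. It gave 0.68, 0.53, 0.31 and 0.88, each ± 0.22, for Ino80, Ino80b, Ino80c and Ino80e, with the largest value after Ino80e siRNA. Pdk2 had negative differences in all 4, -0.30 ± 0.15, -0.38 ± 0.15, -0.19 ± 0.15 and -0.17 ± 0.15, and Pdk3 had differences of 0.13 ± 0.14, -0.14 ± 0.14, 0.03 ± 0.14 and 0.06 ± 0.14. Ldha, the lactate dehydrogenase subunit of glycolytic tissue, had 7.50 and 7.80 after Ino80 siRNA, 7.69 and 7.83 after Ino80b siRNA, 7.91 and 7.82 after Ino80c siRNA and 7.83 and 7.94 after Ino80e siRNA, against 7.68 and 7.61 after NT siRNA. Its differences of 0.00 ± 0.14, 0.12 ± 0.14, 0.22 ± 0.14 and 0.24 ± 0.14 were small, and its 2 probes differed in sign in each comparison with NT. Ldhb, the subunit that favours pyruvate, had 4.49 and 5.45 after Ino80 siRNA, 4.47 and 5.16 after Ino80b siRNA, 4.32 and 4.88 after Ino80c siRNA and 4.54 and 5.28 after Ino80e siRNA, against 4.15 and 4.90 after NT siRNA, with replicates 0.56 to 0.96 apart in every group.

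Hif1a, the oxygen-regulated subunit, differed little between groups. It had 2.41 and 2.23 after Ino80 siRNA, 2.33 and 2.27 after Ino80b siRNA, 2.49 and 2.38 after Ino80c siRNA and 2.33 and 2.20 after Ino80e siRNA, against 2.20 and 2.22 after NT siRNA. The arrays lay close together, within 2.20 to 2.49, and the differences were 0.11 ± 0.13, 0.09 ± 0.13, 0.22 ± 0.13 and 0.05 ± 0.13, with 95% intervals of -0.19 to 0.40, -0.21 to 0.38, -0.08 to 0.52 and -0.24 to 0.35. Egln1, the main prolyl hydroxylase of Hif1a, had -0.24 and -0.39 after Ino80 siRNA, -0.82 and -0.90 after Ino80b siRNA, -1.11 and -0.89 after Ino80c siRNA and -0.70 and -0.89 after Ino80e siRNA, against -0.85 and -0.35 after NT siRNA. The Ino80c arrays lay below both NT arrays and the other groups overlapped NT, with differences of 0.28 ± 0.19, -0.26 ± 0.19, -0.40 ± 0.19 and -0.20 ± 0.19. Egln3, the hydroxylase that hypoxia induces, had -0.21 and 0.84 after Ino80 siRNA, -0.29 and 0.15 after Ino80b siRNA, -0.24 and 0.36 after Ino80c siRNA and 0.04 and 0.70 after Ino80e siRNA, against -0.61 and 0.29 after NT siRNA, and the 95% interval of each of its 4 differences from NT spans 0.

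Among the other hypoxia response genes, Ndrg1, a stress-induced gene of differentiation, gave the lowest adjusted p of the list after Ino80b and Ino80c siRNA. Its levels were 0.30 and 0.93 after Ino80 siRNA, 0.35 and 0.43 after Ino80b siRNA, 0.40 and 0.45 after Ino80c siRNA and 1.2 and 1.43 after Ino80e siRNA, against 1.22 and 1.32 after NT siRNA. The Ino80, Ino80b and Ino80c arrays all lay below NT and the Ino80e arrays overlapped it. The differences were -0.65 ± 0.21, -0.88 ± 0.21, -0.85 ± 0.21 and 0.04 ± 0.21, with adjusted p values of 0.0813, 0.0511, 0.0565 and 0.914. Without Ino80 replicate 1 the Ino80 difference was -0.34, and without Ino80 replicate 2 it was -0.97, past the threshold. Ankrd37, a small ankyrin repeat protein induced by HIF, had 0.85 and 0.90 after Ino80 siRNA, 0.97 and 0.82 after Ino80b siRNA, 0.80 and 0.38 after Ino80c siRNA and 1.29 and 1.06 after Ino80e siRNA, against 0.64 and 0.08 after NT siRNA. Ino80, Ino80b and Ino80e arrays lay above NT, and the Ino80e difference was 0.81 ± 0.22 (adjusted p = 0.093).

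Vegfa, the angiogenic growth factor, gave a different value in each knockdown. It had -0.84 and -0.38 after Ino80 siRNA, -2.18 and -1.42 after Ino80b siRNA, -1.26 and -0.69 after Ino80c siRNA and -0.24 and 0.22 after Ino80e siRNA, against -1.01 and -0.47 after NT siRNA. The Ino80b arrays lay below all other arrays, the Ino80e arrays lay above all others, and the Ino80 and Ino80c arrays overlapped NT. The differences from NT were 0.12 ± 0.35, -1.06 ± 0.35, -0.23 ± 0.35 and 0.73 ± 0.35, and the adjusted p values were 0.833, 0.104, 0.662 and 0.216. The Ino80b difference passed in 2 and the Ino80e difference in 1 of 20 alternatives, for both the replicate block among them. The 3 Vegfa probes had the same sign in each comparison, from -1.06 to -0.86 after Ino80b siRNA and from 0.15 to 0.87 after Ino80e siRNA.

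The prolyl hydroxylases of collagen differed in direction, with P4ha1 at -0.08 and 0.18 after Ino80 siRNA, -0.52 and -0.31 after Ino80b siRNA, -0.49 and 0.00 after Ino80c siRNA and -0.08 and 0.06 after Ino80e siRNA, against -0.08 and 0.53 after NT siRNA. Its Ino80b arrays lay below NT, at -0.64 ± 0.25 (adjusted p = 0.144). P4ha2 differed from NT by 0.40 ± 0.26, 0.04 ± 0.26, 0.18 ± 0.26 and 0.60 ± 0.26. Car9, the carbonic anhydrase used as a marker of hypoxic cells, had -2.85 and -2.97 after Ino80 siRNA, -2.73 and -2.88 after Ino80b siRNA, -2.32 and -2.76 after Ino80c siRNA and -2.69 and -2.95 after Ino80e siRNA, against -2.82 and -2.76 after NT siRNA and differences of -0.12 ± 0.18, -0.01 ± 0.18, 0.25 ± 0.18 and -0.03 ± 0.18. Bnip3, a mitophagy receptor induced by HIF, had 3.18 and 4.04 after Ino80 siRNA, 2.86 and 3.75 after Ino80b siRNA, 3.21 and 3.73 after Ino80c siRNA and 3.56 and 4.45 after Ino80e siRNA, against 2.97 and 4.07 after NT siRNA. Its replicates lay 0.52 to 1.10 apart, and every knockdown overlapped NT.

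Within slides the knockdowns could be compared without the slide. For Ino80 against Ino80b on slide 2, 0 of 31 genes passed the adjusted threshold by limma (0.0697% of all genes did), and 3 passed an unadjusted p of 0.05 (Vegfa, Egln1 and Pfkm), against 9.02% of all genes. The largest difference was that of Vegfa, -0.84 and -0.38 after Ino80 siRNA, against -2.18 and -1.42 after Ino80b siRNA. Both Ino80 arrays lay above both Ino80b arrays, by 1.19 ± 0.35 or 2.27-fold (95% interval 0.36 to 2.01, adjusted p = 0.373), and the 3 probes gave 0.99 to 1.19. With the replicate number as a block in the limma fit, this Vegfa difference passed (adjusted p = 0.0300). Egln1 was at -0.24 and -0.39 after Ino80 siRNA, against -0.82 and -0.90 after Ino80b siRNA, and Pdk1 at 3.38 and 3.86 after Ino80 siRNA, against 2.75 and 3.27 after Ino80b siRNA. Both were higher on the 2 Ino80 arrays than on the 2 Ino80b arrays, Egln1 by 0.54 ± 0.19 and Pdk1 by 0.61 ± 0.26. The second Pdk1 probe gave 0.15 there, with 2.29 and 2.73 after Ino80 siRNA, against 2.20 and 2.52 after Ino80b siRNA, which overlap. Pfkm was at 2.96 and 3.15 after Ino80 siRNA, against 2.44 and 2.77 after Ino80b siRNA, a difference of 0.45 ± 0.17. In all, 8 genes lay above without overlap, against 21.4% of all genes, and 1 below, against 19.4%.

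For Ino80c against Ino80e on slide 3, 0 of 31 genes passed as well (0.0348% of all genes did), and 6 passed an unadjusted p of 0.05, against 10.8% of all genes. All 6 were lower after Ino80c siRNA, against 3.80% of all genes that passed and were lower. The direction was nearly uniform. Of the 31 genes 27 were lower after Ino80c siRNA than after Ino80e siRNA, 87.1%, against 47.7% of all genes. The median difference was -0.29, against 0.02 over all genes. Both Ino80c arrays lay below both Ino80e arrays for 13 genes, 41.9%, against 20.7% of all genes, and above for 1, against 25.6%. The exceptions above 0 were Car9, Pfkl, Hif1a and Eno1. With the deposited table or median centring 27 stayed lower, and with quantile normalization 23. Leaving out each array in turn gave medians of -0.37 to -0.10.

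Ndrg1 had the lowest p of the list in that comparison, with 0.40 and 0.45 after Ino80c siRNA, against 1.2 and 1.43 after Ino80e siRNA. The Ino80c arrays lay well below the Ino80e arrays, which overlapped NT, by -0.89 ± 0.21 or 1.85-fold (adjusted p = 0.178). Vegfa was at -1.26 and -0.69 after Ino80c siRNA, against -0.24 and 0.22 after Ino80e siRNA, a difference of -0.96 ± 0.35 with 3 probes from -1.04 to -0.74. With the replicate number as a block in the limma fit, Vegfa and Pfkp passed (adjusted p = 0.0327 and 0.0340). The other 4 past the unadjusted p were Pfkp, Hk1, Eno2 and Ankrd37. Pfkp was at -0.84 ± 0.36, with 3 probes from -0.84 to 0.00. Hk1 was at -0.81 ± 0.31, with 5 kept probes from -0.81 to -0.01, the reported probe being the most negative. Eno2 was at -0.65 ± 0.27, with 2 probes from -0.76 to -0.65, and Ankrd37 at -0.58 ± 0.22. The group of other hypoxia response genes had the lowest median, -0.53 over 7 genes, and the fate of pyruvate genes the highest, -0.04 over 5. No marker list had a call in this comparison by limma. At an unadjusted p of 0.05, however, 7 of 8 primitive endoderm markers (median -0.67), 5 of 9 fibroblast feeder markers (median 0.62) and 3 of 9 stem cell markers (median -0.09) passed, and 1 of 6 trophectoderm (median -0.09) and 0 of 4 blood markers (median 0.61). The summed primitive endoderm level was 1.83 to 2.10 after Ino80c siRNA, against 2.57 to 2.70 after Ino80e siRNA, and that of the fibroblast list 4.71 to 4.95, against 4.44 to 4.61. The part of these in the direction of the listed genes was not tested.

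**Figure D3:**
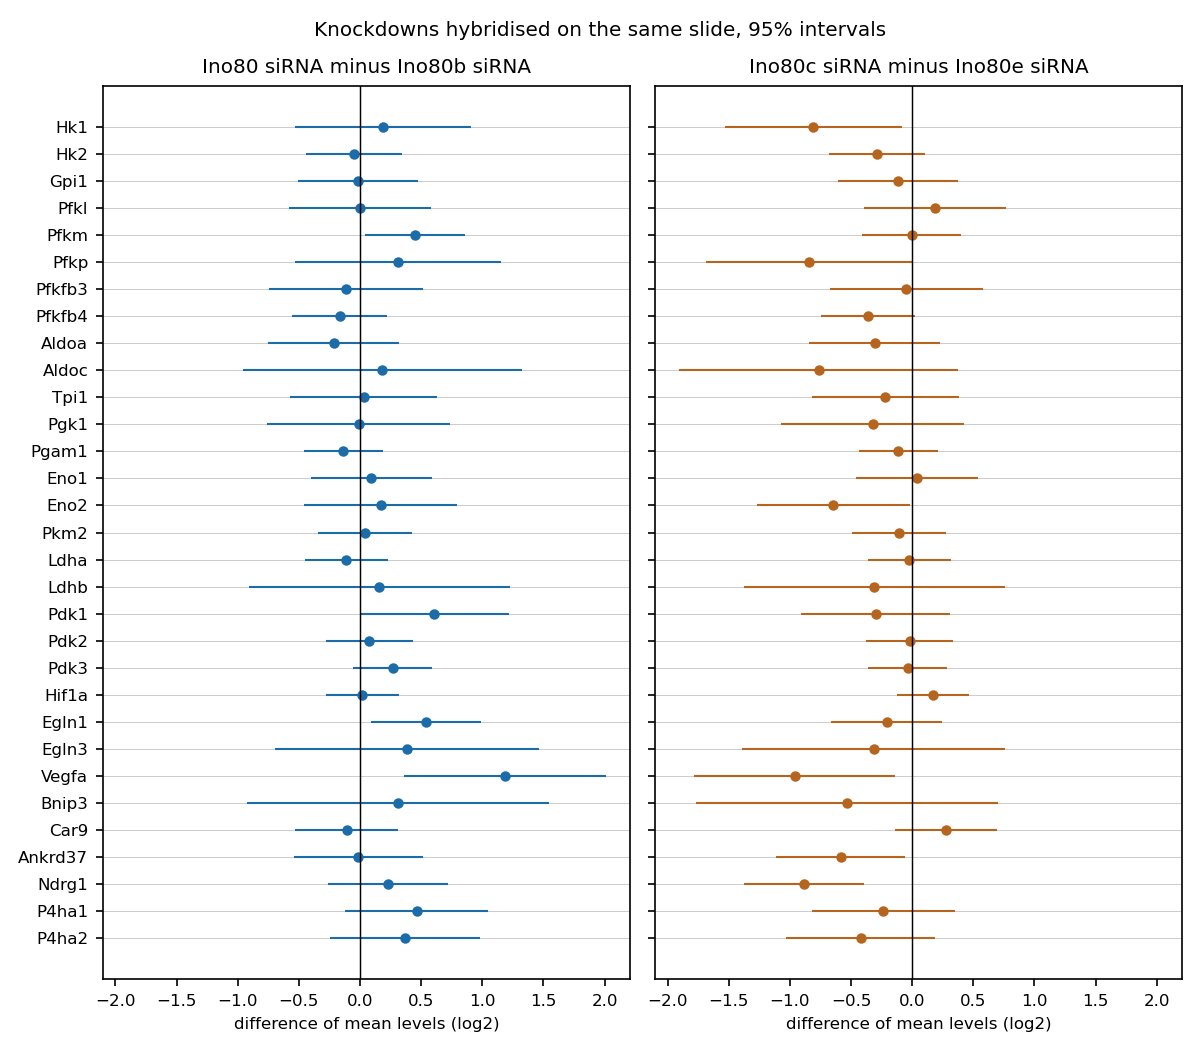
Difference of mean log2 levels for the 31 genes between knockdowns on one slide, Ino80 minus Ino80b (left) and Ino80c minus Ino80e (right), with 95% limma intervals as lines and 2 arrays a group. On the right 27 of 31 points lie left of 0, and Vegfa lies at 1.19 on the left and -0.96 on the right.

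The 2 arrays of a group differed in a way that the listed genes shared. The array of replicate 2 read higher than that of replicate 1 in all 5 groups for 15 of the 31 genes, 48.4%, against 13.8% of all genes. It read lower in all 5 for 1 gene, Pfkfb3, 3.23%, against 12.0%. The 15 were Hk1, Gpi1, Pfkl, Pfkm, Pfkp, Aldoc, Tpi1, Pgk1, Ldhb, Pdk1, Egln3, Vegfa, Bnip3, Ndrg1 and P4ha1. The median gap of the listed genes was 0.25, 0.21, 0.17, 0.23 and 0.29 (log2) in the Ino80, Ino80b, Ino80c, Ino80e and NT groups, against -0.05, 0.05, 0.02, 0.02 and -0.10 over all genes.

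Bnip3 had gaps of 0.52 to 1.10, Aldoc of 0.40 to 1.10, Egln3 of 0.44 to 1.04 and Ldhb of 0.56 to 0.96. For Bnip3 and Ldhb the smallest gap exceeded every difference from NT of the same gene. Pgk1 gaps were 0.39 to 0.63 and Vegfa gaps 0.45 to 0.76. Hif1a itself had gaps of -0.18 to 0.02. The share of probes well above background was higher on replicate 1 in the Ino80, Ino80e and NT groups, higher on replicate 2 in the Ino80c group and nearly equal in the Ino80b group. The labels do not say what the replicate number marks, and the part of culture or processing in this was not tested. With other scalings the count of genes higher in all 5 groups was 15 or 16. Of the 14 such genes with a promoter window, 10 held a HIF core (71.4%), against 13 of the 16 other tested genes (81.3%).

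**Figure D4:**
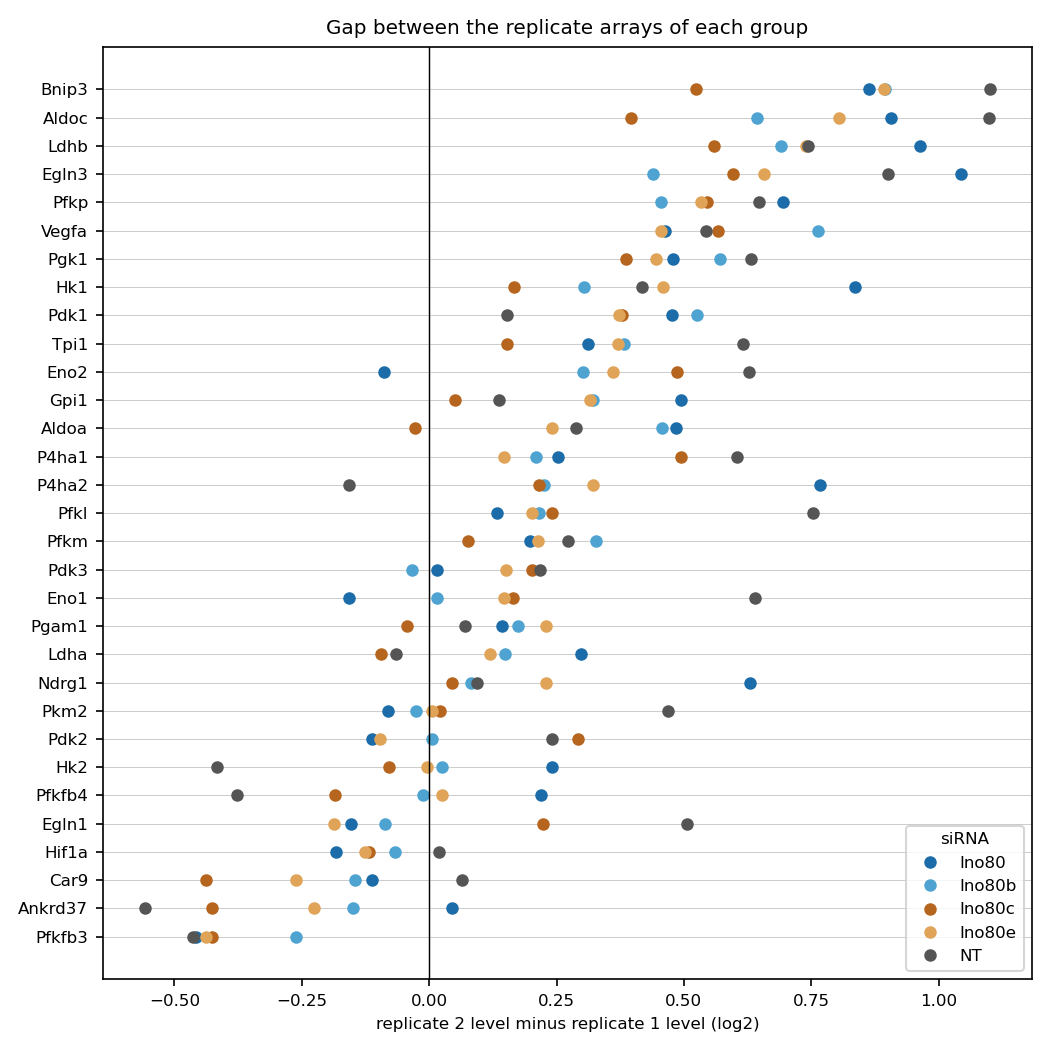
Level on the replicate 2 array minus that on the replicate 1 array (log2) for each of the 31 genes, with 1 point for each siRNA group. The genes are sorted by their median gap, Bnip3 at the top has gaps of 0.52 to 1.10, and Pfkfb3 at the bottom is below 0 in all 5 groups.

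Genes outside the list that act in the same pathways were counted from 8 further lists. Over all genes 12.6%, 6.76%, 6.69% and 0% were called after Ino80, Ino80b, Ino80c and Ino80e siRNA. In hexose and lactate transport (8 genes tested), 2 rose and 1 fell after Ino80 siRNA, and 1 rose after Ino80b siRNA. The lactate exporter Slc16a3, a known HIF target, had 5.29 and 5.47 after Ino80 siRNA, against 4.63 and 4.82 after NT siRNA (log2 difference 0.65 ± 0.16, adjusted p = 0.0442). Slc16a7, a high-affinity monocarboxylate carrier, was called higher after both, with log2 differences of 1.2 (Ino80) and 1.17 (Ino80b). It was well above background on only 1 of the 2 NT arrays, so these differences are uncertain in size. Slc5a1, a sodium-coupled glucose carrier, was called lower after Ino80 siRNA, with a difference of -1.0 that is likewise uncertain in size, since only 1 of the 2 Ino80 arrays was well above background. Among 21 other glycolytic isozymes and glycogen genes, Ugp2 rose after Ino80 siRNA (0.48), Gbe1, the glycogen branching enzyme, after Ino80b siRNA (1.11) and Eno3, the muscle enolase, after Ino80c siRNA (0.70).

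In gluconeogenesis (8 genes), the fructose bisphosphatases that oppose phosphofructokinase changed in several knockdowns. Fbp1 had -3.64 and -3.49 after Ino80 siRNA, against -2.10 and -2.76 after NT siRNA (log2 difference -1.13 ± 0.23, adjusted p = 0.0228). It was higher in the other 2 calls, with -0.55 and -0.62 after Ino80c siRNA, against -2.10 and -2.76 after NT siRNA (log2 difference 1.84 ± 0.23, adjusted p = 0.0177), and a difference of 0.97 after Ino80b siRNA. Within slide 2 it was lower after Ino80 than after Ino80b siRNA, with a difference of -2.11 (adjusted p = 0.0406). Fbp2 fell in 2 knockdowns, with -4.59 and -4.89 after Ino80 siRNA, against -2.59 and -2.86 after NT siRNA (log2 difference -2.02 ± 0.17, adjusted p = 0.00229), and a difference of -0.93 after Ino80b siRNA. Counts were thus 2 lower after Ino80 siRNA, 1 higher and 1 lower after Ino80b siRNA and 1 higher after Ino80c siRNA.

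In the pentose phosphate pathway, Rpe fell after Ino80 siRNA (-0.72), 1 of 6 tested. Of 10 genes of pyruvate entry into mitochondria, and of 9 genes of HIF subunits and oxygen sensing, 0 were called in any comparison by limma. At an unadjusted p of 0.05 the first list had 1, 1, 2 and 4 genes against NT (Ino80, Ino80b, Ino80c and Ino80e) and the second 2, 2, 3 and 3, against 31.5%, 29.6%, 30.7% and 28.7% of all genes. Of 28 other HIF targets, Adm rose and Kdm3a, Kdm4b and Plod1 fell after Ino80 siRNA. Adm, the vasodilator peptide adrenomedullin, had -2.75 and -2.14 after Ino80 siRNA, against -3.81 and -4.09 after NT siRNA (log2 difference 1.5 ± 0.28, adjusted p = 0.0187). Plod1, a collagen lysyl hydroxylase, and the histone demethylase Kdm4b also fell after Ino80c siRNA, by 0.64 and 0.70. Gbe1, which is on this list too, rose after Ino80b siRNA. Of 12 regulators of glycolytic genes, the stem cell factors Esrrb and Klf4 fell after Ino80, Ino80b and Ino80c siRNA. Esrrb differed by -1.61, -1.49 and -1.35 and Klf4 by -1.21, -1.05 and -1.14. Tfeb fell after Ino80 siRNA (-1.99) and Lin28b rose after Ino80c siRNA (0.68). After Ino80e siRNA no gene of any of these lists was called, as was the case for all genes. The 28 calls of these lists kept their direction under every alternative, 19 or 20 each, and the number that kept a call ran from 3 (Slc16a7 after Ino80b siRNA) to 19. Slc16a3 and Slc5a1 kept theirs in 6.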

How the data were processed

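RNA of 10 cultures was read on 1-colour Agilent arrays. Per the file headers, the authors scanned them with Feature Extraction 9.5.3.1, which wrote background-subtracted intensity values per spot, with probe coordinates on build mm7. The authors' deposited value table holds log2 spot means shifted by 1 constant per array, unstated in origin; it served as an alternative. From the intensity values, log2 of the processed signal minus each array's 75th percentile was taken after leaving out control and flagged spots. A probe was kept if some group had it well above background on each of its arrays, and each gene was represented by its brightest probe.

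limma 3.58.1 (R 4.3.3) was fitted to all 10 arrays with group alone, two-sided, with Benjamini-Hochberg adjustment over 20088 genes and a threshold of 0.05. Errors are limma standard errors, and the number of arrays, 2 a group, limits the precision. The scripts were tested on simulated data. Alternatives changed background correction, scaling, probe choice, filter, prior, replicate block and single arrays. The members, the pathway lists and the markers were chosen with earlier results of these data known. Levels per array are given for members with the largest rise or fall of their role group in a knockdown, and for those without which a group cannot be described. Pathway genes outside the members are named where called. Promoter sequences are from RefSeq, GRCm38.p6.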

Additional observations from a re-analysis of the deposited data

How the results depend on the processing

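The count of listed genes past the adjusted threshold was 0 in all 6 comparisons, and it depended on the processing. In the order Ino80, Ino80b, Ino80c and Ino80e against NT, it became 5, 4, 4 and 5 of 31 with normexp background correction (16.1%, 12.9%, 12.9% and 16.1%, against 18.8%, 16.2%, 20.9% and 26.4% of all genes called in the same fit). It became 5, 3, 5 and 1 with the deposited value table (all genes 18.3%, 11.4%, 10.8% and 5.31%) and 5, 4, 4 and 3 with a trended and robust prior (all genes 18.2%, 13.9%, 12.4% and 8.39%). It became 2, 3, 1 and 0 with genes well above background on all 10 arrays (all genes 19.8%, 13.5%, 13.2% and 3.48%), and 0, 2, 0 and 0 with quantile normalization (all genes 14.1%, 7.79%, 4.89% and 0%). Median centring gave 0, 1, 1 and 0 (all genes 11.8%, 5.91%, 4.51% and 0%). With single probes, a listed gene counted if any of its probes passed, which gave 1 after Ino80b siRNA and 0 otherwise. The shares in that fit are over probes rather than genes (11.6%, 5.76%, 4.8% and 0%). The mean of probes (all genes 11.3%, 5.14%, 4.78% and 0%) gave the same counts. No filter gave 0 throughout (all genes 4.74%, 0.995%, 0.558% and 0%). A fit of only the 4 arrays compared also gave 0, but it called 0% of all genes, so its count says nothing of the list. Leaving out each array in turn gave 0 to 3, 0 to 5, 0 to 3 and 0 to 1; the highest counts, 3, 5, 3 and 1, came without NT replicate 1, where 15.9%, 13.8%, 15.2% and 2.31% of all genes were called. With 1 array left in a group, its spread was borrowed from the remaining groups. The 2 comparisons within a slide stayed at 0 in all of these.

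The replicate numbers were not taken as pairs in the fit reported, and the labels do not say what they mark. Over the 10 pairs of groups, deviations of same-numbered arrays correlated at 0.00 to 0.32. Pairs without Ino80c had 0.26 to 0.32. Pairs that include Ino80c had 0.00 to 0.14, so their same-numbered arrays deviated together weakly or not at all. Where same-numbered arrays did share a shift, it counted as spread in the fit reported. With the replicate number as a block, the counts were 7, 6, 3 and 3 against NT (all genes 24.1%, 17.8%, 18.4% and 10.6%), 1 for Ino80 against Ino80b (Vegfa, all genes 0.503%) and 2 for Ino80c against Ino80e (Vegfa and Pfkp, all genes 1.52%). Slide as a random block could not be fitted, because each group lies on 1 slide.

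Of 3720 values of single genes under the alternatives, 3423 kept direction and side of the threshold, 98 passed it, 0 of the called reversed, and 199 not called in either fit changed sign. Ndrg1 passed most often, after Ino80b siRNA in 9 of 20 alternatives (difference -1.0 to -0.84) and after Ino80c siRNA in 8. Eno1 and Pfkp passed in 7 each after Ino80b siRNA. All genes called against NT numbered 2523, 1357, 1344 and 0 in the fit reported, and 0 to 4837, 0 to 3578, 0 to 4191 and 0 to 5312 over the alternatives other than single arrays left out. The median of the listed genes ran from 0.03 to 0.11, -0.12 to 0.02, -0.16 to 0.08 and 0.04 to 0.27 against NT over the same alternatives, and from -0.06 to 0.20, -0.25 to 0.11, -0.23 to 0.10 and 0.02 to 0.30 with single arrays left out, so its sign held after Ino80e siRNA only. Within slides it ran from -0.05 to 0.25 for Ino80 against Ino80b and from -0.37 to -0.10 for Ino80c against Ino80e with single arrays left out. The scalings other than the reported one were compared on the counts of arrays that do not overlap after the data were seen. Under them, genes below both NT arrays on all 8 knockdown arrays numbered 2 to 4 of 31: 12.9% with the deposited table, 9.68% with median centring and 6.45% with quantile normalization, against 11.5%, 10.3% and 12.2% of all genes. The 28 calls of further pathway genes gave 557 values under the alternatives, many of them with the difference unchanged by design. Of these values 303 stayed past the threshold and 0 changed direction. The cause of these changes was not tested.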
